A study of Chrysanthemum x morifolium with 40 samples.

Results

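The comparison described here sets roots of the CK cultivar flooded for 24 h against roots of the same cultivar flooded for 12 h, and so covers what moved during the second 12 h of waterlogging. It rests on 8 of the study's 40 RNA-seq libraries, taken by the cultivar and time in their labels, with 4 libraries at 12 h and 4 at 24 h. CK is 'zaoxiaoyangju', the conventional, waterlogging-sensitive cultivar of 'Hangju', a medicinal and edible form of Chrysanthemum × morifolium. The other 32 libraries hold CK roots at 0 h, 3 h and 24_3 h, the last being flooded roots given 3 h of air after the 24 h, and roots of the tolerant cultivar Enhanced Waterlogging Tolerance (EWT) at all 5 time points. All groups came from seedlings aged 8 weeks, and the flooded ones were held with the water surface above the upper leaves. Both groups compared here had therefore been submerged, and they differed only in the labelled time. Unflooded seedlings were sampled at 0 h alone, so a longer flood cannot be told apart from another time of day. The methods of the study call the libraries of a group biological replicates, and no source read here says whether each came from a single plant or a pool.

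Flooding slows the entry of oxygen into roots, and cells then draw more of their ATP from glycolysis and fermentation. In flowering plants this switch is set off by group VII ERF transcription factors, which are degraded while oxygen is present. Ethylene, which cannot escape from submerged tissue, is the other early signal, and growth, uptake of nutrients and protein synthesis are usually cut back as energy runs short.

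Between 12 h and 24 h the high summed levels of pyruvate decarboxylase and alcohol dehydrogenase, the enzymes of alcohol fermentation, overlapped in CK roots. The ethylene-forming ACC oxidases, the 60S and 40S ribosomal proteins, the aquaporins, the trehalose phosphate synthases and the class III peroxidases had more members called lower than higher. Auxin conjugation and response genes, an ethylene receptor, cytokinin receptor and ammonium transporter matches, and Pol polyproteins of transposons had more members called higher. Of the 89517 genes tested, 5478 were called, or 6.12%, of which 2574 were higher at 24 h (2.88%) and 2904 lower (3.24%). A gene was called when its adjusted p was at most 0.05 and its fold change at least 2 in a limma model of log2(FPKM + 0.1) over all 40 libraries, and the fold changes below are on that scale. The median size of the called log2 fold changes was 1.84. Among strongly expressed genes, with a mean of at least 100 FPKM in the higher group, 81 were called lower and 23 higher. FPKM is the number of fragments scaled to gene length and library size, so levels can be compared between genes.

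These counts lean on the spread shared by all 40 libraries. With only the 8 compared libraries in the model 425 genes were called, 400 of them among the 5478. A filter that kept genes at 1 FPKM or more in at least 4 of these 8 libraries raised that count to 972, of which 863 were among the 5478. Of the 5478 genes, 3092 had 4 libraries at 12 h that did not overlap with the 4 at 24 h, as did 8.095% of all tested genes. Leaving out each of the 8 libraries in turn gave 4227 to 5984 calls, and 2062 genes were called every time. Shallow genes add uncertainty, so the 34936 genes with a mean of at least 10 fragments over the 8 libraries were also counted alone. Of these, 2400 were called (6.87%), with 1075 higher (3.08%) and 1325 lower (3.79%). Every single gene given with its values below has a mean of at least 10 fragments.

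The 12 h libraries held 3896104 to 4632569 fragments on genes and the 24 h libraries 3517588 to 5104076, among the shallowest of the series, where the range was 3517588 to 9929777. Pearson's r between libraries, across genes on the log2(FPKM + 0.1) scale, was 0.836 to 0.869 within the groups and 0.812 to 0.852 between them. Root identity was checked by defining genes. SHORT-ROOT, which patterns the root ground tissue, was summed over its matches at 9.75 to 16.6 FPKM at 12 h and 13.5 to 16.7 FPKM at 24 h, and MYB36, which drives endodermis differentiation, at 18.1 to 22.8 and 15.2 to 25.3 FPKM. Casparian strip membrane protein 1 was lower at 24 h, with 6.76 to 18.7 and then 2.64 to 5.98 FPKM. SCARECROW had 1.01 to 3.80 and 0.478 to 1.72 FPKM, and RHD6 0 to 1.26 and 0 FPKM. Photosynthesis and leaf genes together held 255 to 436 FPKM at 12 h and 297 to 491 FPKM in 3 of the 24 h libraries, but 800 FPKM in replicate 4 of 24 h. Since whole roots were ground, fewer cells of a type and less RNA per cell cannot be told apart. Gene names here are the best protein matches in other species given in the deposited table. Chrysanthemum is polyploid, and no source read here says how reads shared by similar copies were assigned or whether strand was used, so single copies and overlapping genes are less certain than groups.

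**Figure D1:**
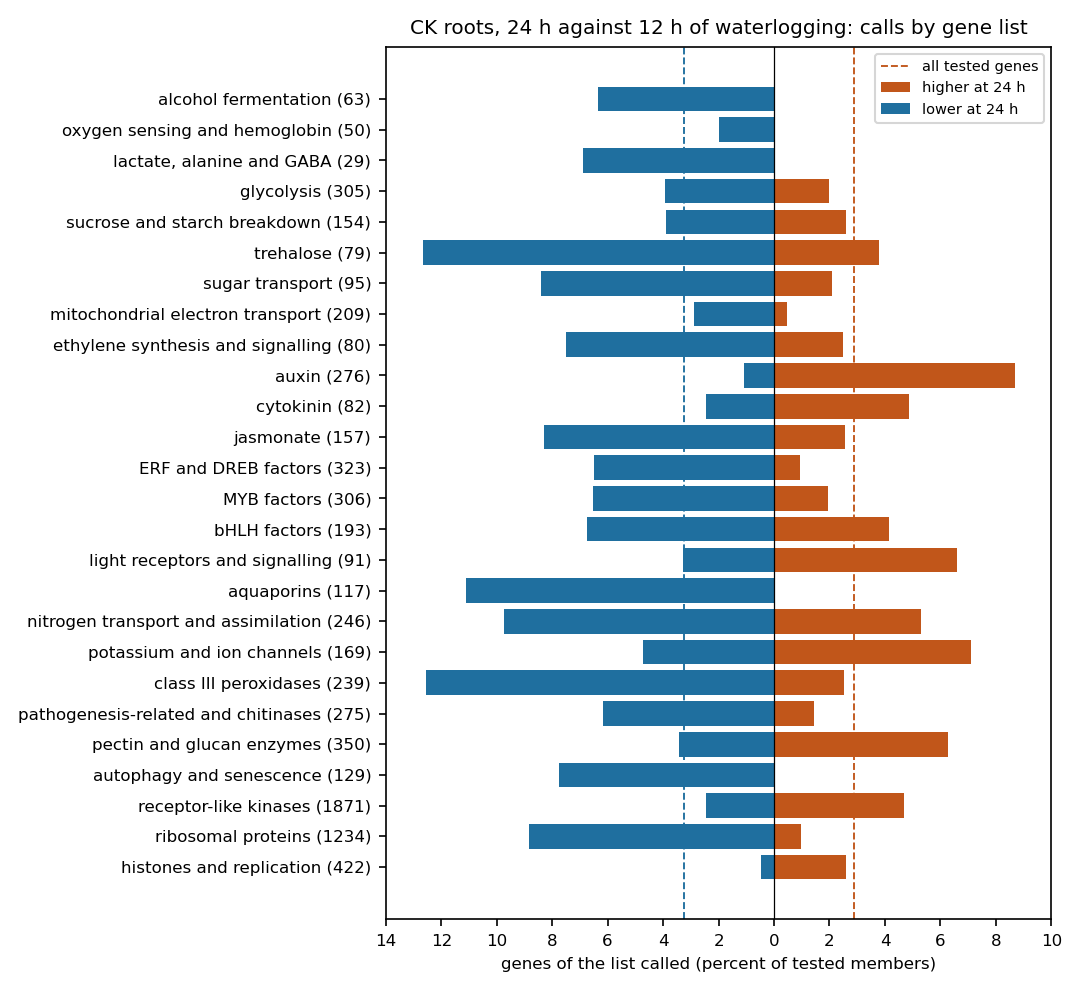
Share of tested genes called higher (right) and lower (left) at 24 h than at 12 h in CK roots, in percent, for 26 gene lists; dashed lines mark the shares of all tested genes, 2.88% and 3.24%. Aquaporins, class III peroxidases, trehalose genes and ribosomal proteins reach well past the dashed line on the lower side, and auxin genes on the higher side.

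The largest rises with non-overlapping libraries came from unrelated functions. The 21 kDa protein match (evm_TU_scaffold_3326_60, chromosome 9, 247655566 to 247656298), whose match name gives no function, had 1.27, 0, 2.24 and 0.307 FPKM at 12 h and 5.94, 14.4, 8.34 and 13.04 FPKM at 24 h (log2 fold change 4.05, SE 0.74, adjusted p = 0.00058). After reoxygenation its mean was 67.9 FPKM. A gene matched to the Pol polyprotein of transposon TNT 1-94 on chromosome 23 had 1.43, 0.776, 1.59 and 0.541 FPKM at 12 h and 9.22, 12.8, 8.84 and 12.6 FPKM at 24 h (log2 fold change 3.30, SE 0.36, adjusted p = 9.2e-07). Before flooding its mean was 0.0213 FPKM. Berberine bridge enzyme-like 15 (evm_TU_scaffold_668_9, chromosome 3, 311164463 to 311166868), of a family of FAD-linked oxidases, had 3.67, 2.18, 2.62 and 1.01 FPKM at 12 h and 9.20, 21.1, 13.9 and 14.1 FPKM at 24 h (log2 fold change 2.64, SE 0.46, adjusted p = 0.00032). In each of these 3 genes every 24 h library lay above every 12 h library, as the rule that chose them required.

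Metabolic enzymes made up most of the other large rises. Type I inositol polyphosphate 5-phosphatase 2 (evm_TU_scaffold_782_36, chromosome 25, 209490791 to 209494241), which removes a phosphate from inositol phosphates, had 2.50, 4.47, 5.84 and 2.59 FPKM at 12 h and 31.7, 25.3, 21.5 and 15.03 FPKM at 24 h (log2 fold change 2.61, SE 0.39, adjusted p = 4.8e-05). It had stood at 34.4 FPKM before flooding and 1.85 FPKM at 3 h, so the 24 h level was closer to the unflooded one. Trehalose-phosphate phosphatase D (evm_TU_scaffold_604_48), which makes trehalose from its phosphate, had 0.937, 1.11, 2.48 and 2.94 FPKM at 12 h and 12.6, 15.4, 9.80 and 6.26 FPKM at 24 h (log2 fold change 2.57, SE 0.55, adjusted p = 0.0028). D-3-phosphoglycerate dehydrogenase (evm_TU_scaffold_1069_161), the entry step of serine synthesis from glycolysis, had 4.17, 1.49, 4.41 and 3.63 FPKM at 12 h and 27.8, 25.6, 15.8 and 11.6 FPKM at 24 h (log2 fold change 2.55, SE 0.61, adjusted p = 0.0078). Dihydroceramide fatty acyl 2-hydroxylase FAH2 (evm_TU_scaffold_5125_1, chromosome 14, 284646889 to 284652542), which hydroxylates the fatty acids of membrane sphingolipids, had 4.55, 6.41, 3.80 and 5.21 FPKM at 12 h and 15.6, 35.2, 37.1 and 19.6 FPKM at 24 h (log2 fold change 2.33, SE 0.24, adjusted p = 3.1e-07). A B3 domain protein (evm_TU_scaffold_1095_40), of a plant family of DNA-binding proteins, had 6.57, 7.08, 8.69 and 4.16 FPKM at 12 h and 18.5, 42.9, 33.5 and 35.2 FPKM at 24 h (log2 fold change 2.26, SE 0.45, adjusted p = 0.0015). None of these genes overlapped between the groups, which the rule required.

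The largest falls with non-overlapping libraries also came from unrelated functions. Kunitz trypsin inhibitor 5 (evm_TU_scaffold_415_38, chromosome 9, 218217684 to 218220035), a protease inhibitor, had 80.96, 54.3, 41.7 and 22.3 FPKM at 12 h and 10.4, 9.73, 3.88 and 2.73 FPKM at 24 h (log2 fold change -2.95, SE 0.72, adjusted p = 0.0083). It was at 0 in all 4 libraries before flooding, so its fall followed an earlier appearance. The vacuolar amino acid transporter YPQ1 (evm_TU_scaffold_8776_76, chromosome 4, 175373916 to 175376675) had 14.7, 15.1, 14.1 and 14.9 FPKM at 12 h and 2.26, 0.847, 0.751 and 7.93 FPKM at 24 h (log2 fold change -2.90, SE 0.41, adjusted p = 2.6e-05), with close values at 12 h and replicate 4 the highest library at 24 h. Beta carbonic anhydrase 5 (evm_TU_scaffold_956_439), which converts carbon dioxide to bicarbonate, had 23.6, 15.4, 14.8 and 7.37 FPKM at 12 h and 3.35, 1.12, 2.04 and 2.94 FPKM at 24 h (log2 fold change -2.64, SE 0.43, adjusted p = 0.00017). RING-H2 finger protein ATL8 (evm_TU_scaffold_362_157), a ubiquitin ligase, had 10.6, 11.8, 10.3 and 9.55 FPKM at 12 h and 1.33, 1.11, 2.22 and 2.73 FPKM at 24 h (log2 fold change -2.53, SE 0.37, adjusted p = 3.6e-05). In all 4 genes the groups were apart, again by the rule.

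BURP domain protein RD22 (evm_TU_scaffold_1554_46, chromosome 22, 155297407 to 155298921), known from Arabidopsis as a gene of dehydration, had 46.2, 77.7, 42.2 and 17.2 FPKM at 12 h and 6.23, 7.79, 6.18 and 10.5 FPKM at 24 h (log2 fold change -2.41, SE 0.35, adjusted p = 4.3e-05). The root allergen protein (evm_TU_scaffold_987_297), of the pathogenesis-related family, had 60.2, 40.9, 37.3 and 19.3 FPKM at 12 h and 5.36, 9.10, 6.69 and 6.72 FPKM at 24 h (log2 fold change -2.40, SE 0.38, adjusted p = 0.00011). Both had their lowest 12 h value in replicate 4, still above every 24 h library. A mitochondrial benzaldehyde dehydrogenase (evm_TU_scaffold_405_102), which oxidises benzaldehyde to benzoate, had 15.8, 9.81, 3.96 and 14.04 FPKM at 12 h and 1.36, 1.36, 1.70 and 3.94 FPKM at 24 h (log2 fold change -2.30, SE 0.36, adjusted p = 0.00012), again with replicate 4 highest at 24 h. An ABC transporter of the G family, member 36 (evm_TU_scaffold_161_435, chromosome 22, 78244254 to 78246340), had 15.96, 18.98, 25.5 and 15.9 FPKM at 12 h and 2.43, 3.50, 5.12 and 4.92 FPKM at 24 h (log2 fold change -2.26, SE 0.35, adjusted p = 8.6e-05), and its 0 h mean was only 1.39 FPKM. For every gene given here whose libraries do not overlap, the two-sided exact permutation p was 0.0286, the smallest that 4 against 4 libraries can give. That value follows from the lack of overlap alone. For the largest rises and falls the rule of choice required it, so it adds no support.

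**Figure D2:**
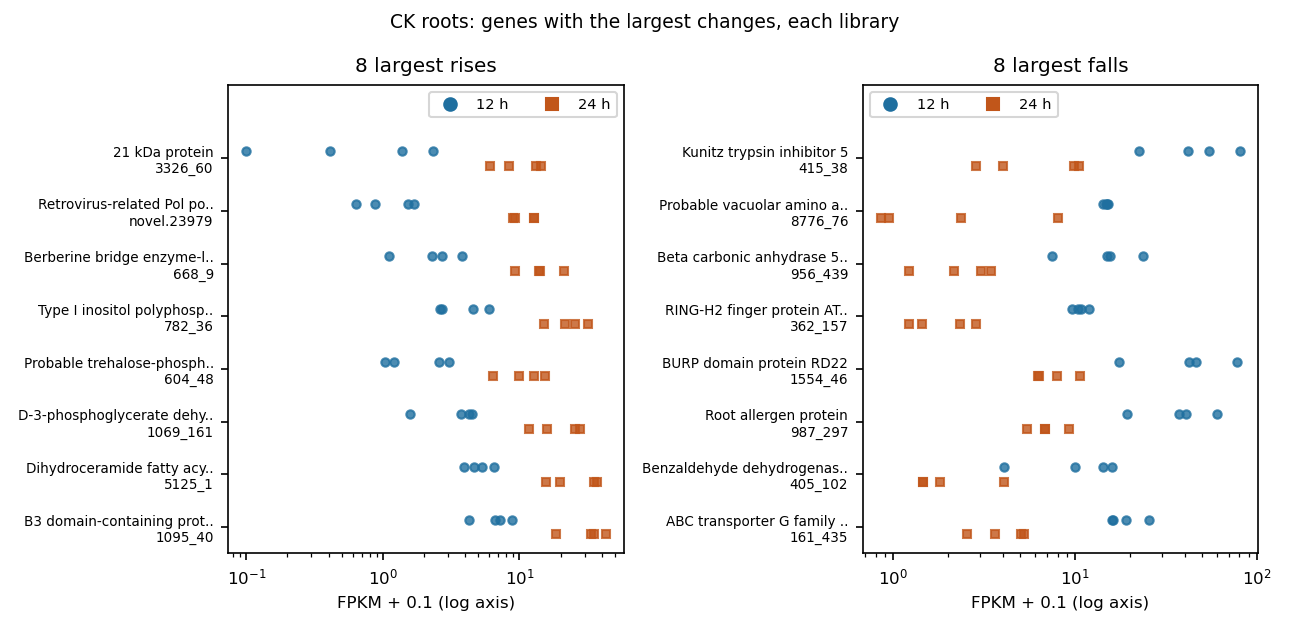
FPKM (log axis, 0.1 added) of the 8 largest rises and 8 largest falls in each CK library, at 12 h and at 24 h, 1 point per library. In all 16 genes the 4 points of one time lie apart from the 4 of the other, as the rule that chose them required.

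The abundant enzymes of alcohol fermentation had overlapping levels at both times. Pyruvate decarboxylase, which turns pyruvate into acetaldehyde, had 26 tested matches, of which 0 were called higher and 1 lower. Summed over all matches it had 12197, 14466, 12940.5 and 11333 at 12 h and 12112, 13533, 12466 and 10202 FPKM at 24 h, against a mean of 82.3 FPKM before flooding and 8156 FPKM at 3 h. Alcohol dehydrogenases 1 to 3, which reduce acetaldehyde to ethanol, summed to 14845, 16957, 14816 and 11989 at 12 h and 14879.6, 15848, 13431 and 11264 FPKM at 24 h, from 41.3 FPKM at 0 h, with 1 of 22 tested matches called lower. In both enzymes the 12 h and 24 h sums overlapped. The most abundant single copies overlapped as well. Pyruvate decarboxylase 1 (evm_TU_scaffold_535_88, chromosome 12, 115816953 to 115819862) had 3808, 4594, 4114 and 3369 FPKM at 12 h and 3411, 3873, 3558 and 2587 FPKM at 24 h (log2 fold change -0.25, SE 0.20, adjusted p = 0.54) and alcohol dehydrogenase 2 (evm_TU_scaffold_8363_149) had 3149.5, 3648, 3145 and 2547 FPKM at 12 h and 3144, 3212, 2877 and 2252 FPKM at 24 h (log2 fold change -0.12, SE 0.29, adjusted p = 0.91). Over the whole fermentation list of 63 tested genes 4 were called lower, or 6.35% against 3.24% of all tested genes, and 0 higher, and the 4 became 0 without replicate 2 of 24 h.

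Other low-oxygen genes had few calls. The list of oxygen sensing and hemoglobin genes had 0 of 50 tested members called higher and 1 lower. That is 2% called, against 6.12% of all tested genes. Single families, here and below, often have few tested matches, and their counts were not set against that share. Non-symbiotic hemoglobin, which scavenges nitric oxide, had 4732, 4638, 4249.6 and 2905 at 12 h and 3146, 2971, 3002 and 3085 FPKM at 24 h over its matches, with 1 of 16 tested matches called lower. Its leading copy (evm_TU_scaffold_415_128) had 1651 ± 389 FPKM at 12 h and 1293 ± 22.3 FPKM at 24 h (means ± SD, n = 4), with a log2 fold change of -0.32 and an adjusted p of 0.73. Sucrose synthase, which opens sucrose to glycolysis at low energy cost, had 4771 to 6137 at 12 h and 4046 to 4922 FPKM at 24 h and 0 calls among 25 tested matches. Lactate dehydrogenase had 0 calls among 6. The universal stress proteins had 0 calls among 18, and their leading member PHOS34 (evm_TU_scaffold_74_252) had 4009 ± 565 FPKM at 12 h and 4019.9 ± 903 FPKM at 24 h (log2 fold change -0.01, adjusted p = 1). At 0 h that gene had a mean of 14.6 FPKM. Cytosolic glyceraldehyde-3-phosphate dehydrogenase (evm_TU_scaffold_9671_113), a glycolytic enzyme, had 3087, 3419, 3697 and 2863 FPKM at 12 h and 4243, 3916, 5072 and 4364 FPKM at 24 h, with every 24 h library above every 12 h library but a small change that was not called (log2 fold change 0.43, SE 0.14, adjusted p = 0.056). Glycolysis as a list had 6 of 305 genes called higher and 12 lower, shares below the background in one direction and near it in the other, and without replicate 2 or replicate 3 of 24 h the lower count was 7.

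Nitrogen-linked fermentation side paths were uneven. Alanine aminotransferase, which stores pyruvate as alanine, summed to 338, 368, 407 and 404 at 12 h and 609, 602, 651 and 525 FPKM at 24 h, apart between the groups, yet 0 of its 10 tested matches were called. Glutamate decarboxylase (evm_TU_scaffold_952_360), the source of GABA, had 233, 191, 129 and 257 FPKM at 12 h and 274, 298, 729.6 and 299 FPKM at 24 h and was short of the fold limit (log2 fold change 0.90, SE 0.24, adjusted p = 0.018). It was called without replicate 4 of 12 h (log2 fold change 1.03) or without replicate 1 of 24 h (1.04), and replicate 3 of 24 h was its highest library by far. GABA transaminase 1 (evm_TU_scaffold_9411_37, chromosome 9, 132255527 to 132261151), which breaks GABA down, had 28.4, 33.2, 30.5 and 27.7 FPKM at 12 h and 14.96, 10.5, 10.7 and 9.85 FPKM at 24 h (log2 fold change -1.39, SE 0.23, adjusted p = 0.00023). It was called lower with each library left out in turn.

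**Figure D3:**
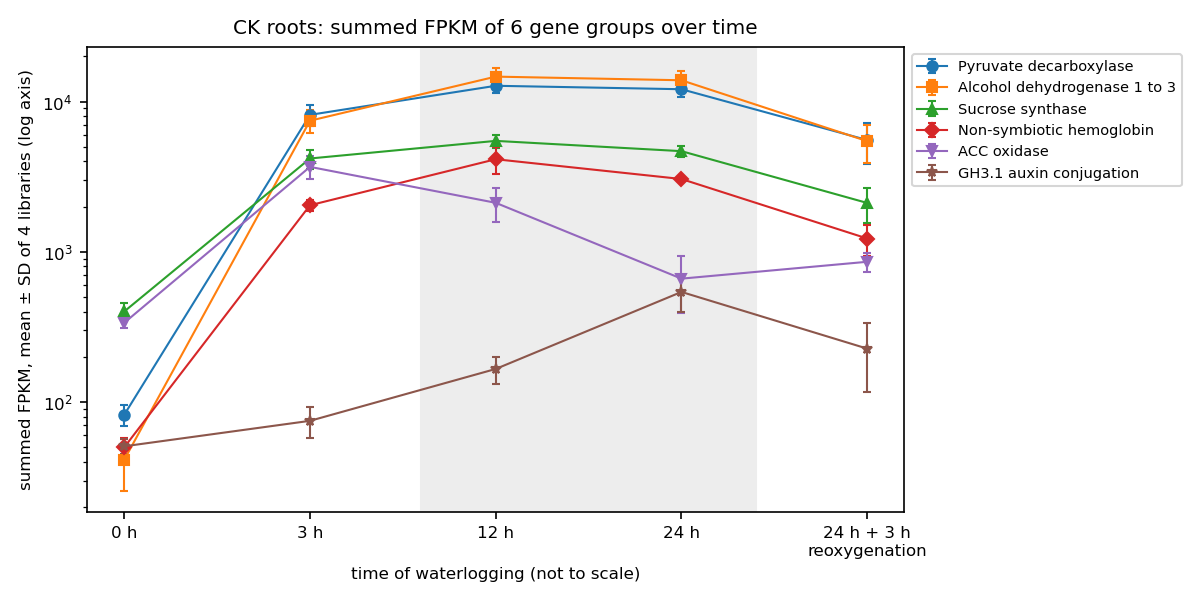
Summed FPKM (log axis, mean ± SD of 4 libraries) of 6 gene groups in CK roots before flooding, at 3 h, at 12 h, at 24 h and after the return to air, with the 12 h and 24 h points shaded. Pyruvate decarboxylase, alcohol dehydrogenase, sucrose synthase and hemoglobin lie close together at 12 h and 24 h, ACC oxidase drops from its 3 h peak, and GH3.1 is highest at 24 h.

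Among the ethylene synthesis genes, ACC oxidase matches had calls and ACC synthase matches had none. ACC oxidase, which makes ethylene from its precursor ACC in a step that needs oxygen, had 17 tested matches, of which 6 were called lower and 0 higher. Its summed level was 2172, 2703, 1408 and 2190.4 at 12 h and 525, 424, 656 and 1045 FPKM at 24 h, after means of 337 FPKM at 0 h and 3674 FPKM at 3 h. Every 24 h library was below every 12 h library. The leading copy, ACC oxidase 1 (evm_TU_scaffold_1340_15, chromosome 2, 291106591 to 291107978), had 1062, 1343, 733 and 1099 FPKM at 12 h and 238, 203, 295 and 502 FPKM at 24 h (log2 fold change -1.83, SE 0.32, adjusted p = 0.00042). The count of 6 became 3 without replicate 1 of 12 h and 10 without replicate 3 of 12 h. With only the 8 libraries in the model it was 0, or 5 with the filter. ACC synthase, which makes the precursor, had 0 calls among 15 tested matches and a summed level of 862 to 1211 at 12 h and 759 to 1037 FPKM at 24 h, overlapping between the times.

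Some ethylene receptor genes rose. Matches of EIN4, a receptor that blocks signalling until ethylene binds, summed to 5.46, 8.04, 8.53 and 12.8 at 12 h and 33.97, 33.6, 29.1 and 28.3 FPKM at 24 h, and all 3 tested matches were called higher, also with any of the 8 libraries left out. Ethylene receptor 1 had 2 of 6 tested matches called higher, with summed levels of 6.72 to 8.95 at 12 h and 12.5 to 15.4 FPKM at 24 h. One of the 2 (evm_TU_scaffold_1263_180, chromosome 25, 197855562 to 197862026) had 2.95, 2.36, 4.40 and 3.61 FPKM at 12 h and 5.71, 8.15, 5.94 and 9.09 FPKM at 24 h (log2 fold change 1.10, SE 0.17, adjusted p = 0.00010). Its fold change slipped under the limit without replicate 2 of 12 h (log2 fold change 0.95) or without replicate 4 of 24 h (0.98). A kinase with the deposited match name CTR1 (evm_TU_scaffold_398_5), for which the study names RAF6 as the Arabidopsis homolog, had 20.7, 22.6, 21.5 and 13.4 FPKM at 12 h and 21.6, 16.8, 10.7 and 10.8 FPKM at 24 h and was not called (log2 fold change -0.42, SE 0.23, adjusted p = 0.30). Of the 6 tested Ethylene receptor 1 matches, 3 had a log2 fold change above 0 and 3 below. With only the 8 libraries in the model, 1 EIN4 match and 0 Ethylene receptor 1 matches were called higher. The filter made these counts 2 and 0. The ethylene list of 80 tested genes, which did not hold the EIN4 matches, had 2 called higher (2.5%) and 6 lower (7.5%). All tested genes had 2.88% higher and 3.24% lower.

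Auxin genes had mainly rises among their calls. Of 276 tested members 24 were called higher, or 8.70%, and 3 lower, or 1.09%, with a median log2 fold change of 0.04 against 0 over all tested genes. The higher count was 21 to 28 with any 1 of the 8 libraries left out, but 4 with only the 8 libraries in the model and 17 when the filter within them was added. GH3.1, an enzyme that joins auxin to amino acids and so takes it out of use, had 8 of 9 tested matches called higher and 0 lower. Its summed level was 209, 129, 151 and 175 at 12 h and 446, 758, 475 and 483 FPKM at 24 h, with no overlap, from 50.7 FPKM at 0 h. The leading called copy (evm_TU_scaffold_6116_12, chromosome 5, 184042405 to 184044912) had 61.5, 27.4, 45.8 and 35.5 FPKM at 12 h and 109, 207, 116 and 128 FPKM at 24 h (log2 fold change 1.73, SE 0.36, adjusted p = 0.0024). The IAA repressors, which auxin both induces and destroys, had 6 of 41 tested matches called higher and 0 lower, although their summed levels overlapped. As a group they did not rise, with 19 matches above 0, 22 below and a median log2 fold change of -0.07. With only the 8 libraries in the model 0 were called, or 4 with the filter. BIG, a large protein needed for auxin transport, had 5 of 24 called higher, a count that was 2 without replicate 4 of 12 h. BIG matches summed to 104 to 209 at 12 h and 291 to 314 FPKM at 24 h.

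A few genes of cytokinin perception rose. Histidine kinase 3, a cytokinin receptor, had 3 of 8 tested matches called higher and summed to 87.3, 79.9, 105 and 70.7 at 12 h and 206, 212, 186 and 172 FPKM at 24 h. Response regulators of the ARR group, which carry the cytokinin signal to the nucleus or damp it, had 3 of 19 called higher and 0 lower, with sums of 155, 166, 165 and 239 at 12 h and 339, 286, 405 and 253 FPKM at 24 h. ARR4 (evm_TU_scaffold_1449_111, chromosome 16, 242178588 to 242180971), one that damps the signal in Arabidopsis, had 38.3, 31.1, 36.6 and 49.996 FPKM at 12 h and 118, 90.3, 152 and 61.8 FPKM at 24 h (log2 fold change 1.37, SE 0.30, adjusted p = 0.0032). The groups did not overlap for either sum or for ARR4, though replicate 4 was the highest library at 12 h and the lowest at 24 h in both ARR values. With only the 8 libraries in the model, 2 histidine kinase 3 and 0 ARR matches were called higher, or 3 and 2 with the filter. Over the whole cytokinin list of 82 tested genes, 4 were higher and 2 lower.

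The jasmonate list, made from words in match names, had 13 of 157 tested members called lower (8.28%) and 4 higher (2.55%), but its enzymes did not move alike. Linoleate 9S-lipoxygenase 5 (evm_TU_scaffold_1763_279, chromosome 23, 255084881 to 255088238), which oxygenates linoleic acid, had 64.7, 69.1, 70.6 and 78.97 FPKM at 12 h and 32.2, 20.4, 28.1 and 25.98 FPKM at 24 h (log2 fold change -1.42, SE 0.19, adjusted p = 1.6e-05). Over all its matches 9S-lipoxygenase had 4 of 20 called lower and summed to 246 to 275 at 12 h and 135 to 179.9 FPKM at 24 h. Whether these lipoxygenases take part in jasmonate synthesis was not tested. Cytochrome P450 94C1 (evm_TU_scaffold_1557_7), which inactivates the jasmonate hormone by oxidation, had 158, 208, 147 and 151 FPKM at 12 h and 104, 47.98, 56.97 and 63.1 FPKM at 24 h (log2 fold change -1.34, SE 0.22, adjusted p = 0.00015). The 12-oxophytodienoate reductases went the other way in their sum, with 2251, 2307, 2398 and 2157 at 12 h and 2800, 2405, 4157 and 2999 FPKM at 24 h. Of their 31 tested matches 2 were called higher and 1 lower. A putative 12-oxophytodienoate reductase 11 (evm_TU_scaffold_1224_4) had 5.21, 7.44, 6.43 and 6.42 FPKM at 12 h and 17.6, 17.7, 44.5 and 19.3 FPKM at 24 h (log2 fold change 1.83, SE 0.36, adjusted p = 0.0013), and 1 high library, replicate 3 of 24 h.

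The shares of abscisic acid and gibberellin genes called were 4.55% and 6.74%, near the 6.12% of all tested genes. The abscisic acid list had 1 of 66 called higher and 2 lower. One that fell was abscisic acid 8'-hydroxylase 1 (evm_TU_scaffold_9043_375), which breaks the hormone down, with 10.1 ± 4.28 FPKM at 12 h and 3.51 ± 1.23 FPKM at 24 h (log2 fold change -1.46, SE 0.29, adjusted p = 0.0012). Gibberellin genes had 4 of 89 called higher and 2 lower. The DELLA protein GAI1 (evm_TU_scaffold_1293_130), a repressor of gibberellin responses, had 3.15, 2.08, 2.90 and 2.98 FPKM at 12 h and 0.722, 0.601, 2.90 and 0.950 FPKM at 24 h (log2 fold change -1.29, SE 0.31, adjusted p = 0.0066). Replicate 3 of 24 h lay inside the 12 h range, so the groups overlapped, with an exact permutation p of 0.0571.

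Among sugar genes the trehalose phosphate synthases had calls in the lower direction only. Trehalose phosphate synthase is named for the sugar phosphate through which plants sense sucrose, and whether each match makes it was not tested. Of its 57 tested matches 9 were called lower and 0 higher. Summed over matches it had 1316, 1284, 1169 and 836 at 12 h and 663, 589, 690.2 and 590.0 FPKM at 24 h, with every 24 h library lowest, against 227 FPKM at 0 h. Trehalose-phosphate synthase 11 (evm_TU_scaffold_9809_91, chromosome 13, 196064571 to 196067829) had 191, 169, 141 and 94.4 FPKM at 12 h and 53.6, 52.4, 49.8 and 56.7 FPKM at 24 h (log2 fold change -1.44, SE 0.27, adjusted p = 0.00077). The trehalose list as a whole had 10 of 79 called lower and 3 higher, 2 of the higher ones being phosphatases. Sugar transport had 8 of 95 lower and 2 higher. The count of 8 was 5 without replicate 2 of 24 h. Sugar transport protein 14 (evm_TU_scaffold_10636_6_evm_TU_scaffold_10636_7_evm_TU_scaffold_10636_9, which joins 3 gene models) had 179.7, 186, 164 and 133 FPKM at 12 h and 64.5, 42.9, 83.8 and 86.6 FPKM at 24 h (log2 fold change -1.30, SE 0.21, adjusted p = 0.00014). Phosphoenolpyruvate carboxykinase 1 (evm_TU_scaffold_9340_379), which turns oxaloacetate back towards sugar, had 22.2, 18.2, 16.2 and 11.8 FPKM at 12 h and 4.11, 6.89, 4.58 and 6.45 FPKM at 24 h (log2 fold change -1.61, SE 0.34, adjusted p = 0.0023). Sucrose and starch breakdown itself had 4 of 154 higher and 6 lower, and its leading sucrose synthase (evm_TU_scaffold_3531_14) stood at 1543 ± 128 FPKM at 12 h and 1519 ± 148 FPKM at 24 h.

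Aquaporins, the water channels of the plasma membrane and the vacuole, had calls in the lower direction only. Of 117 tested members 13 were called lower, or 11.1%, and 0 higher, and their median log2 fold change was -0.57 against 0 over all genes. The 13 became 7 without replicate 2 of 24 h, 1 with only the 8 libraries in the model (6 with the filter) and 2 with precision weights on the recovered fragments. Vacuolar TIP matches summed to 5266, 5146, 3919 and 2915 at 12 h and 2486, 2198, 2581 and 2168 FPKM at 24 h, with 7 of 33 called lower. Plasma membrane PIP matches summed to 2582, 2318, 1933 and 1775 at 12 h and 1648, 1035, 1428 and 1701 FPKM at 24 h, with 4 of 41 lower. In both kinds the highest 24 h library lay under the lowest 12 h one. The TIP RB7-5A match (evm_TU_scaffold_5326_1_evm_TU_scaffold_5326_10_evm_TU_scaffold_5326_3, 3 joined gene models) had 384, 374, 331 and 225 FPKM at 12 h and 137, 119, 127 and 143 FPKM at 24 h (log2 fold change -1.30, SE 0.24, adjusted p = 0.00053). The most abundant aquaporin, TIP1-1 (evm_TU_scaffold_18_33), had 2194, 2216, 1683 and 1151 FPKM at 12 h and 1125, 987, 1191 and 943 FPKM at 24 h and was not called (log2 fold change -0.73, SE 0.29, adjusted p = 0.12).

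Nitrogen genes had 13 of 246 tested members called higher (5.28%) and 24 lower (9.76%), against 2.88% and 3.24% of all tested genes. The higher count was 7 without replicate 1 of 12 h and 8 without replicate 1 of 24 h. Ammonium transporter 1 member 1, which takes up ammonium from the soil, had all 3 tested matches called higher, and they summed to 27.2, 30.8, 34.4 and 34.4 at 12 h and 84.6, 75.1, 90.8 and 72.1 FPKM at 24 h. One of them (evm_TU_scaffold_6298_122, chromosome 24, 5109139 to 5111655) had 11.5, 17.6, 15.2 and 16.4 FPKM at 12 h and 40.2, 33.1, 42.7 and 36.8 FPKM at 24 h (log2 fold change 1.34, SE 0.18, adjusted p = 1.2e-05). Glutamine synthetase, which fixes that ammonium, had 5 of 15 called lower and sums of 1272, 1238, 1088 and 1035 at 12 h and 422, 373, 437 and 1031 FPKM at 24 h. Its main copy (evm_TU_scaffold_952_19, chromosome 7, 133686086 to 133689197) had 784, 744, 661 and 595 FPKM at 12 h and 256, 218, 258 and 607 FPKM at 24 h (log2 fold change -1.18, SE 0.24, adjusted p = 0.0014, exact permutation p = 0.0571). Replicate 4 of 24 h, the library with the high leaf gene sum, kept the 12 h level and the other 3 libraries were far below it. High-affinity nitrate transporters followed the same pattern, with 6 of 28 called lower and sums of 673, 708, 555 and 305 at 12 h and 226, 252, 168 and 549 FPKM at 24 h. The 6 became 1 without replicate 1 of 24 h. With only the 8 libraries in the model, 0 glutamine synthetase and 0 nitrate transporter matches were called, with or without the filter.

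Ion transport showed opposite moves of related genes. Chloride channel CLC-f matches summed to 5.07, 7.19, 9.47 and 11.999 at 12 h and 30.6, 25.3, 31.2 and 16.9 FPKM at 24 h, with 3 of 4 tested called higher. CLC-b, a channel protein of the same family, had all 3 tested matches called lower and 40.9 to 45.3 at 12 h and 14.7 to 28.5 FPKM at 24 h. The leading CLC-f copy (evm_TU_scaffold_472_47) had 2.60, 3.54, 5.19 and 7.15 FPKM at 12 h and 16.7, 14.7, 15.4 and 8.87 FPKM at 24 h (log2 fold change 1.63, SE 0.24, adjusted p = 4.1e-05). SKOR, the channel that releases potassium into the xylem, had 2 of 15 matches called lower and 1 higher. Its main copy (evm_TU_scaffold_6612_3) had 40.4, 51.4, 48.6 and 30.8 FPKM at 12 h and 16.1, 32.7, 17.2 and 15.2 FPKM at 24 h, with replicate 2 of 24 h inside the 12 h range (log2 fold change -1.12, SE 0.28, adjusted p = 0.011, exact permutation p = 0.0571). Ferric reduction oxidase 2 (evm_TU_scaffold_4753_131, chromosome 17, 39174356 to 39177755), which reduces iron at the root surface for uptake, had 2.07, 2.90, 1.44 and 1.18 FPKM at 12 h and 10.3, 10.7, 4.75 and 10.03 FPKM at 24 h (log2 fold change 2.19, SE 0.47, adjusted p = 0.0029). It was at 0 in every library before flooding. An inactive purple acid phosphatase (evm_TU_scaffold_682_44) had 15.3 ± 5.11 FPKM at 12 h and 5.98 ± 1.42 FPKM at 24 h (log2 fold change -1.31, SE 0.33, adjusted p = 0.010), in a phosphate and sulfate list with 12 of 164 called higher and 9 lower.

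**Figure D4:**
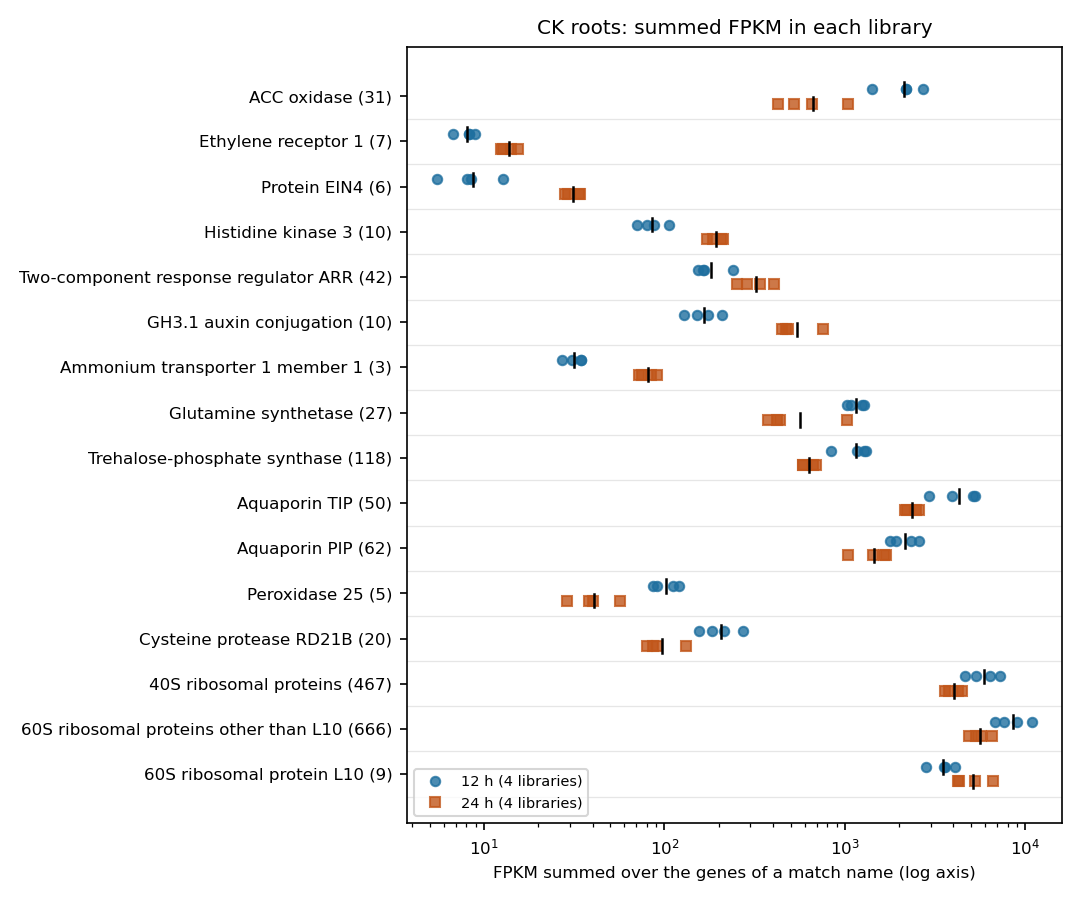
Summed FPKM (log axis) of all genes sharing each of 16 protein match names, 1 point per CK library at 12 h and at 24 h, with black bars at the means and the number of genes in parentheses. ACC oxidase, trehalose phosphate synthase, both aquaporin groups, Peroxidase 25, RD21B, glutamine synthetase and the ribosomal sums other than L10 lie lower at 24 h; the receptor, GH3.1, ammonium transporter and L10 sums lie higher.

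Ribosomal protein genes were called lower far more often than higher. Of 1234 tested ribosomal protein genes 109 were called lower, or 8.83%, and 12 higher, with a median log2 fold change of -0.49. The lower count was 63 without replicate 2 of 24 h and 65 without replicate 1 of 12 h, and 4 with only the 8 libraries in the model (18 with the filter) or 18 with precision weights. Proteins of the small cytosolic subunit, 40S, summed to 7262, 6387, 4652 and 5349 at 12 h and 4214, 3574, 3765 and 4477 FPKM at 24 h, with 38 of 340 called lower and 3 higher. Those of the large subunit, 60S, without L10 summed to 10933, 9041, 6786 and 7590.1 at 12 h and 5698, 4849, 5312 and 6508 FPKM at 24 h, with 41 of 471 lower and 4 higher. Every 24 h library lay below every 12 h one in both sums. The count for these 60S genes was 23 without replicate 1 of 12 h, and that for 40S was 19 without replicate 2 of 24 h.

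L10 stood apart from the other large-subunit proteins. Its 8 tested matches, 0 of them called, summed to 3541, 3574, 4074 and 2831 at 12 h and 4261, 5285, 6586 and 4319.8 FPKM at 24 h, with the 24 h libraries highest, from 527 FPKM before flooding. The main L10 copy (evm_TU_scaffold_3617_66) had 1823, 1844, 2138 and 1613 FPKM at 12 h and 2239, 2752, 3711 and 2088 FPKM at 24 h (log2 fold change 0.51, SE 0.21, adjusted p = 0.13). A called example of the fall was L17-2 (evm_TU_scaffold_9050_82, chromosome 6, 236124591 to 236126661), with 127, 132, 99.2 and 85.9 FPKM at 12 h and 58.6, 34.96, 49.1 and 66.7 FPKM at 24 h (log2 fold change -1.10, SE 0.23, adjusted p = 0.0020). Its fold change was under the limit without replicate 2 of 24 h (log2 fold change -0.92). Plastid and mitochondrial type 30S and 50S proteins had 22 of 326 called lower and 3 higher, and their sums overlapped. Translation factors had 7 of 417 lower and 3 higher.

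Class III peroxidases, secreted enzymes that use hydrogen peroxide to cross-link or loosen the cell wall, were lower in 30 of 239 tested genes, or 12.6%, and higher in 6. Leaving out 1 library gave 25 to 36 lower calls, and the 8 libraries alone gave 4, or 12 with the filter. Their median log2 fold change was -0.39. All 4 tested Peroxidase 25 matches were called lower, with sums of 111, 119.8, 90.7 and 86.6 at 12 h and 56.6, 38.04, 40.3 and 28.7 FPKM at 24 h. All 3 Peroxidase 42 matches were called lower too, although replicate 4 of 24 h overlapped the 12 h range in a sum of 429, 515, 259.9 and 293 at 12 h and 131, 108, 108 and 260.0 FPKM at 24 h. Before flooding these matches had a summed mean of 2491 FPKM. Its main copy (evm_TU_scaffold_1298_159) had 218, 262, 128 and 130.2 FPKM at 12 h and 76.5, 59.7, 56.4 and 126 FPKM at 24 h (log2 fold change -1.22, SE 0.21, adjusted p = 0.00030). Against the trend, Peroxidase 3 (evm_TU_scaffold_534_198, chromosome 26, 167182924 to 167184280) had 11.4, 8.77, 9.36 and 7.70 FPKM at 12 h and 22.1, 12.1, 45.3 and 22.1 FPKM at 24 h (log2 fold change 1.29, SE 0.32, adjusted p = 0.010). Without replicate 3 of 24 h, its highest library, its log2 fold change was 0.96, under the fold limit.

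Other cell wall genes were mixed. Laccase-7 (evm_TU_scaffold_1692_425), of the copper oxidases that polymerise phenolics, had 60.8, 81.1, 67.3 and 118 FPKM at 12 h and 25.7, 19.4, 27.5 and 32.8 FPKM at 24 h (log2 fold change -1.61, SE 0.27, adjusted p = 0.00020). Expansin-like A1 (evm_TU_scaffold_538_83), related to the wall-loosening expansins, had 113, 144, 179 and 177 FPKM at 12 h and 51.4, 59.7, 57.3 and 69.1 FPKM at 24 h (log2 fold change -1.35, SE 0.23, adjusted p = 0.00022). Both groups of libraries were well apart. Cellulose synthase subunit 2 (evm_TU_scaffold_11231_47), which makes cellulose of the primary wall, went up from 6.31 ± 2.79 FPKM at 12 h to 13.6 ± 1.46 FPKM at 24 h (log2 fold change 1.17, SE 0.21, adjusted p = 0.00047), still below its 0 h mean of 47.4 FPKM. Pectin and glucan enzymes had 22 of 350 called higher and 12 lower, and the lower count was 5 or 6 without replicate 4 of 12 h, replicate 1 of 24 h or replicate 2 of 24 h. Casparian strip and suberin genes, which seal the root endodermis, had 6 of 73 higher and 4 lower. The Casparian strip membrane protein 1 matches summed to 6.76 to 18.7 FPKM at 12 h and 2.64 to 5.98 FPKM at 24 h.

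The lists of autophagy and senescence and of pathogenesis-related proteins had more members called lower than higher, as had the protease RD21B. The cysteine protease RD21B, a papain-type enzyme of the vacuole, had 5 of 12 tested matches called lower and sums of 271, 213, 156 and 183 at 12 h and 90.6, 86.3, 79.7 and 132 FPKM at 24 h. The autophagy and senescence list had 10 of 129 called lower (7.75%) and 0 higher, against 3.24% and 2.88% of all tested genes. The lower count was 6 when replicate 1 of 24 h was left out. SENESCENCE-ASSOCIATED GENE 21 (evm_TU_scaffold_945_112), a small mitochondrial stress protein, had 89.1, 81.7, 51.6 and 32.5 FPKM at 12 h and 27.9, 17.8, 15.001 and 27.4 FPKM at 24 h (log2 fold change -1.47, SE 0.29, adjusted p = 0.0011). Metacaspase-4 (evm_TU_scaffold_6149_179), a protease tied to plant cell death, went from 26.6 ± 4.94 FPKM at 12 h to 11.99 ± 5.34 FPKM at 24 h (log2 fold change -1.22, SE 0.21, adjusted p = 0.00023). Summed levels of the cell death and nuclease list were 654 to 830.4 FPKM at 12 h and 536 to 654 FPKM at 24 h. Pathogenesis-related proteins and chitinases had 17 of 275 called lower (6.18%) and 4 higher (1.45%). Their lower count was 10 without replicate 1 or without replicate 2 of 12 h and 11 without replicate 2 of 24 h. Thaumatin-like proteins gave 7 of those lower calls among 42 tested.

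All 3 called pEARLI1-like lipid transfer proteins, of 4 tested, were lower, with sums of 132, 118, 112 and 104 at 12 h and 41.3, 20.1, 21.6 and 53.7 FPKM at 24 h. One of them (evm_TU_scaffold_1431_173) had 59.3, 56.7, 56.5 and 52.7 FPKM at 12 h and 20.7, 6.34, 9.84 and 27.8 FPKM at 24 h (log2 fold change -2.02, SE 0.36, adjusted p = 0.00042). Matches of a proline-rich wall protein had 2 of 5 called lower and 496 to 904 at 12 h and 168 to 382 FPKM at 24 h. ABC transporter G family member 35 (evm_TU_scaffold_10684_109), a short gene model, had 149, 168, 202 and 133 FPKM at 12 h and 54.96, 62.5, 44.3 and 58.5 FPKM at 24 h (log2 fold change -1.56, SE 0.28, adjusted p = 0.00050). ABC transporters as a list leaned to neither side, with 22 of 391 called higher and 18 lower. Beta-caryophyllene synthase (evm_TU_scaffold_237_76), a terpene enzyme, had 26.5, 34.3, 6.83 and 9.60 FPKM at 12 h and 4.60, 3.56, 1.46 and 6.54 FPKM at 24 h (log2 fold change -2.11, SE 0.47, adjusted p = 0.0042), with the 12 h libraries spread widely. Glutathione S-transferase T1 (evm_TU_scaffold_1139_686), a detoxifying enzyme, was among the risers with 52.7, 47.9, 75.6 and 38.2 FPKM at 12 h and 176, 149.9, 203 and 81.2 FPKM at 24 h (log2 fold change 1.47, SE 0.26, adjusted p = 0.00045).

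ERF and DREB and MYB transcription factors had shares called lower above the 3.24% of all tested genes and shares called higher below the 2.88%. The bHLH factors were above both shares. WRKY factors, with 5 of 197 called higher (2.54%) and 4 lower (2.03%), were below both. ERF and DREB factors had 21 of 323 called lower (6.502%) and 3 higher (0.929%). Their lower count was 10 without replicate 2 of 12 h and 12 without replicate 2 of 24 h. MYB factors had 20 of 306 lower (6.54%) and 6 higher (1.96%), and bHLH factors 13 of 193 lower (6.74%) and 8 higher (4.15%). With precision weights the lower counts of ERF and DREB, MYB and bHLH factors were 6, 10 and 9. Among genes with a mean of at least 10 fragments they were 8 of 161, 10 of 124 and 9 of 81. bHLH130 (evm_TU_scaffold_620_450, chromosome 19, 127997849 to 128002364) had 285, 379.9, 302 and 275 FPKM at 12 h and 142, 174, 120.5 and 93.7 FPKM at 24 h (log2 fold change -1.25, SE 0.17, adjusted p = 2.3e-05), well above its 0 h mean of 50.1 FPKM at both times. MYB62 (evm_TU_scaffold_923_126), a regulator of phosphate starvation responses in Arabidopsis, had 66.2, 66.1, 35.7 and 34.1 FPKM at 12 h and 18.8, 31.2, 15.6 and 16.9 FPKM at 24 h (log2 fold change -1.27, SE 0.32, adjusted p = 0.0096). MYB58 (evm_TU_scaffold_250_617), an activator of lignin genes in Arabidopsis, rose with 15.99, 16.9, 7.49 and 15.6 FPKM at 12 h and 27.6, 38.4, 44.1 and 28.9 FPKM at 24 h (log2 fold change 1.35, SE 0.22, adjusted p = 0.00015). bHLH153 (evm_TU_scaffold_11263_241) also rose, with 9.46, 7.87, 8.90 and 3.66 FPKM at 12 h and 15.5, 16.6, 23.5 and 17.5 FPKM at 24 h (log2 fold change 1.35, SE 0.25, adjusted p = 0.00077). Neither riser overlapped between the times.

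The bZIP list of 48 tested genes had 4 called higher and 0 lower. bZIP transcription factor 2 (evm_TU_scaffold_909_103) had 2.80, 2.49, 1.76 and 4.63 FPKM at 12 h and 7.36, 14.9, 11.4 and 12.9 FPKM at 24 h (log2 fold change 2.00, SE 0.32, adjusted p = 0.00013), having dropped from 34.3 FPKM at 0 h to 2.60 FPKM at 3 h. A NAC factor matched to NAC domain protein 83 went from 2.86 ± 0.800 FPKM at 12 h to 8.35 ± 2.07 FPKM at 24 h (log2 fold change 1.52, SE 0.28, adjusted p = 0.00063). Light signalling genes had 6 of 91 called higher and 3 lower, and the 6 became 3 without replicate 1 of 24 h. HY5, the bZIP factor that carries light signals to gene promoters, had 2 of 3 matches called higher and sums of 25.7, 24.6, 35.3 and 19.6 at 12 h and 96.2, 65.2, 144 and 40.9 FPKM at 24 h. Its leading copy (evm_TU_scaffold_1260_337, chromosome 22, 189936523 to 189940023) had 11.7, 17.98, 17.8 and 10.4 FPKM at 12 h and 53.7, 45.7, 88.3 and 25.6 FPKM at 24 h (log2 fold change 1.78, SE 0.40, adjusted p = 0.0048). The B-box zinc finger protein 22 (evm_TU_scaffold_461_169), a partner in light signalling, fell, with 61.5, 64.7, 48.9 and 47.5 FPKM at 12 h and 28.8, 16.4, 21.1 and 31.8 FPKM at 24 h (log2 fold change -1.21, SE 0.19, adjusted p = 0.00013). Of the clock genes 1 of 100 was called higher and 2 lower.

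Receptor-like kinases, the cell-surface sensors of plants, were called higher in 88 of 1871 tested genes, or 4.70%, and lower in 46, or 2.46%. With precision weights the counts were 40 and 15, and with only the 8 libraries they were 6 and 3, or 12 and 9 with the filter. A leucine-rich repeat kinase matched to At1g06840 (evm_TU_scaffold_3617_68, chromosome 10, 221545573 to 221556792) had 13.2, 10.3, 14.3 and 17.8 FPKM at 12 h and 33.3, 35.5, 40.3 and 29.5 FPKM at 24 h (log2 fold change 1.33, SE 0.15, adjusted p = 1.7e-06). FERONIA (evm_TU_scaffold_18_353, chromosome 2, 248782404 to 248933464), a receptor that monitors the growing wall, had 29.1, 37.4, 32.2 and 26.3 FPKM at 12 h and 12.8, 12.9, 9.93 and 10.5 FPKM at 24 h (log2 fold change -1.43, SE 0.24, adjusted p = 0.00020). Both kinases moved in opposite directions with no overlap. The deposited coordinates of the FERONIA match span far more bases than those of the other genes given here. Whether that model holds a single gene was not tested.

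Calcium signalling genes had 16 of 486 called lower (3.29%), near the 3.24% of all tested genes, and 4 higher (0.823%), below the 2.88%. Protein phosphatases 2C were near both shares, with 8 of 272 lower (2.94%) and 6 higher (2.21%). The calcineurin subunit B match (evm_TU_scaffold_1047_344), a calcium sensor, had 18.3 ± 3.69 FPKM at 12 h and 6.73 ± 2.81 FPKM at 24 h (log2 fold change -1.53, SE 0.28, adjusted p = 0.00050). Calcineurin B-like protein 8 (evm_TU_scaffold_8113_5), a sensor of the same fold, had 3.95 ± 1.30 FPKM at 12 h and 10.8 ± 3.25 FPKM at 24 h (log2 fold change 1.46, SE 0.27, adjusted p = 0.00063). Protein phosphatase 2C 52 (evm_TU_scaffold_1266_582) fell from 18.5 ± 3.02 FPKM at 12 h to 5.85 ± 1.93 FPKM at 24 h (log2 fold change -1.70, SE 0.25, adjusted p = 4.8e-05). The cell cycle inhibitor SMR13 (evm_TU_scaffold_1660_106) fell from 10.3 ± 5.15 FPKM at 12 h to 3.15 ± 1.59 FPKM at 24 h (log2 fold change -1.68, SE 0.33, adjusted p = 0.0012). A heat shock cognate 70 kDa protein (evm_TU_scaffold_4941_160), a chaperone, rose from 5.83 ± 1.29 FPKM at 12 h to 13.9 ± 1.63 FPKM at 24 h (log2 fold change 1.26, SE 0.29, adjusted p = 0.0047). Histone and replication genes had 11 of 422 called higher and 2 lower, but 0 of either among the 168 with a mean of at least 10 fragments.

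Genes matched to the Pol polyprotein of transposon TNT 1-94, the enzyme block of a copia-type retrotransposon, were often called higher. Of 91 tested matches 33 were called higher and 1 lower, with a median log2 fold change of 0.92. Their summed level was 189.8, 219, 246 and 162 at 12 h and 381, 574, 349.9 and 446 FPKM at 24 h, with every 24 h library highest, and its mean at 0 h was 62.9 FPKM. The higher count was 24 to 34 with any 1 library left out, 6 with only the 8 libraries in the model and 17 with the filter added. Pol polyproteins of transposons RE1 and RE2, of the same broad class, had 9 of 54 called higher and 1 lower, and their sums of 267 to 529 at 12 h and 353 to 632 FPKM at 24 h overlapped. How alike these copies are in sequence was not tested, so which of them was read is uncertain.

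Protein domains in the deposited annotation gave the same kind of count without use of match names. Of 478 Pfam domains with 30 to 1000 tested genes, the integrase core domain of retroelements had the largest share called higher, 28 of 67 genes (41.8%). The His Kinase A domain followed near the top with 9 of 41, the ferric reductase transmembrane domain with 7 of 32 and the response regulator receiver domain with 13 of 82. The Nodulin-like domain was split, with 8 of 32 higher and 4 lower. On the lower side, the hydrophobic seed protein domain, found in small secreted lipid transfer proteins, led with 15 of 47 genes (31.9%). The N-terminal domain of glycosyl hydrolase family 3 had 9 of 34 lower, glycosyltransferase family 20, the domain of the trehalose phosphate synthases, 8 of 31, and the papain cysteine protease domain 8 of 41. These genes overlap with the groups above and are counted here as a description.

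Photosynthesis and leaf genes had 8 of 124 called higher and 0 lower, with a median log2 fold change of 0.38. Replicate 4 of 24 h had their highest sum. Oxygen-evolving enhancer protein 2, a subunit of photosystem II, summed to 2.63 to 11.0 FPKM at 12 h and 1.39 to 58.2 FPKM at 24 h. Without that library 5 were called higher. Root markers had 1 of 39 lower and 0 higher, with sums of 35.7 to 57.6 FPKM at 12 h and 34.2 to 48.7 FPKM at 24 h. The part of leaf RNA in the high values of that library for glutamine synthetase, nitrate transporters and Peroxidase 42 was not tested.

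The tolerant cultivar EWT was compared over the same hours between its own 8 libraries, none of them part of the CK comparison. Both comparisons came from the same model of all 40 libraries. They shared its estimate of the spread, so their calls are not independent. In EWT 6757 genes were called (7.55%), and 1400 genes were called in both cultivars, which is 25.6% of the CK calls and 20.7% of the EWT calls. Of the 1400, 1376 moved in the same direction and 24 in opposite ones. The difference between the cultivars was itself tested as an interaction, and 575 genes were called for it (0.642%), 255 of them among the CK calls. That count was 935 without replicate 4 of CK 24 h. Of the 74 single genes with values here 63 were called in CK, 61 of those had the same sign in EWT and 39 were called there.

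The cultivars differed by that test in 3 of the 74 genes. Peroxidase 3 (evm_TU_scaffold_534_198) rose in CK and had a log2 fold change of -0.88 in EWT (adjusted p = 0.080), a difference of 2.17 with SE 0.46 (adjusted p = 0.016). bHLH153 (evm_TU_scaffold_11263_241) rose in CK against -0.21 in EWT, a difference of 1.56 with SE 0.36 (adjusted p = 0.030). The benzaldehyde dehydrogenase (evm_TU_scaffold_405_102) fell in CK against -0.18 in EWT, a difference of -2.11 with SE 0.52 (adjusted p = 0.044). GH3.1 had 1 match called higher in EWT against 8 in CK, but the difference for its leading copy was not called (1.31, adjusted p = 0.25). Ribosomal proteins had 113 and aquaporins 23 called lower in EWT, where their median log2 fold changes were -0.50 and -0.67. Photosynthesis and leaf genes had 0 called higher and 6 lower in EWT, and for 4 of the 124 the difference was called, with CK higher.

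**Figure D5:**
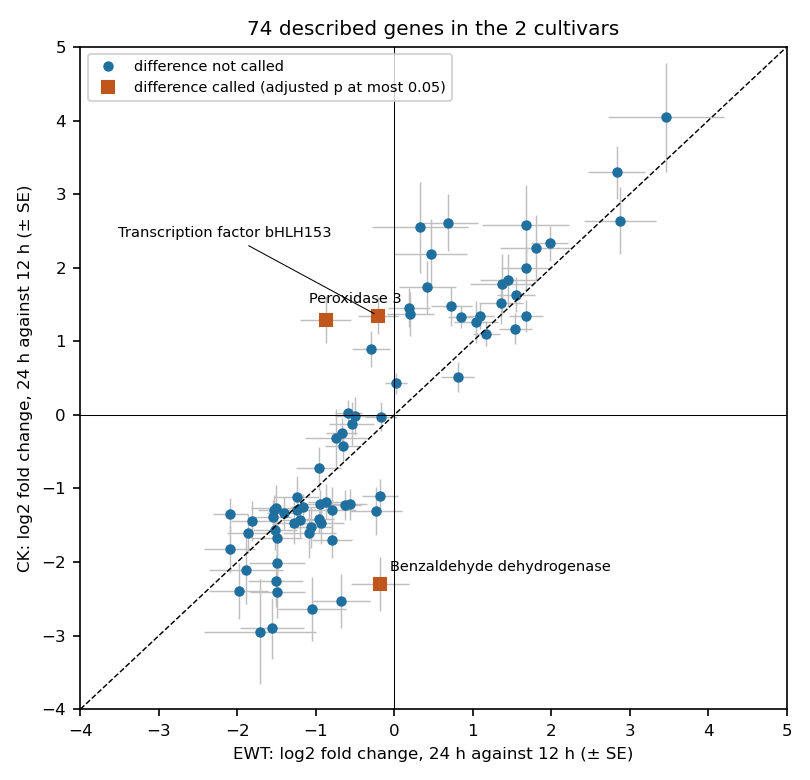
Log2 fold change from 12 h to 24 h in CK (vertical axis) against EWT (horizontal axis) for the 74 described genes, with limma standard errors as bars and a dashed line of equal change. Most points lie in the lower left and upper right; squares mark the 3 genes whose difference between cultivars was called.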

How the data were processed

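Poly-A RNA-seq libraries of CK and EWT roots were made by the study, with 4 libraries in each of 10 groups, named by cultivar and time in the sample labels. Per the labels and the submitters' processing notes, reads were cleaned with fastp, mapped with HISAT2 2.0.5 and counted with featureCounts 1.5.0-p3. Coordinates are those deposited, on a genome whose build no source read here names. The authors deposited FPKM for 178540 genes in 40 libraries and ran their own comparisons with DESeq2, none of which were used. Multiplied by gene length, 100% of the non-zero values were whole numbers of fragments within 0.01 of a fragment, so depth was recovered. The library size in the FPKM was 0.780 to 0.991 times the fragments on genes in the 8 libraries compared. One fragment in a short gene weighs much, and 3 fragments in a gene of 1000 bases come to 0.675 to 1.02 FPKM in these libraries, a limit for counting error only.

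The 89517 genes with at least 1 FPKM in at least 4 libraries were tested with limma 3.58.1 in R 4.3.3 on log2(FPKM + 0.1), fitting 10 group means and an intensity trend, and p-values were adjusted by Benjamini-Hochberg over all of them. A call needed a fold change of 2 or more beside an adjusted p no higher than 0.05. The procedure was tested on simulated data, where more unchanged genes were called than genes had been changed. Most of these false calls fell on genes with a mean under 10 fragments. Calls on such genes are therefore less certain than their adjusted p states. Tables were handled with data.table (version 1.17.8), Python 3.11.15, numpy 2.4.6 and pandas 2.3.3, and plots were drawn with matplotlib 3.10.9. Library relations, outlying libraries and named genes were also checked with two-sided exact permutation tests of 4 against 4 libraries or by leaving each library out.

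The 65 gene lists and the comparison were chosen with earlier results of these data known. The named genes were the 8 largest called rises and 8 largest called falls with non-overlapping libraries, a match name and a mean of at least 10 FPKM in the higher group, the called member of highest mean in each direction of each list with at least 5 tested genes (the member of highest mean where none was called), the gene evm_TU_scaffold_398_5, and any gene matched to TINY, of which 0 were tested. The 10 Pfam domains with the largest shares in each direction could be named. Of the list members, mostly those called with every library left out in turn are described. The groups by protein match name, the leading members of lists where other members were called, and the leading alcohol dehydrogenase were chosen after their values were seen. Alternatives were other fold limits, filters, pseudocounts, library sizes, precision weights on recovered fragments (voom), fewer libraries, a replicate block and leaving out each library.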

Additional observations from a re-analysis of the deposited data

Results flagged for a closer look

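In groups of 4 libraries, 9 of 158 values had a highest or lowest library whose gap to its nearest neighbour took up more of the group's range than Dixon's limit allows; the share of the range is given in parentheses. Chance alone gives about 1 such value in 20. At 24 h, replicate 3 was highest for the 12-oxophytodienoate reductase 11 match (0.938), for the DELLA protein GAI1 (0.848) and for glutamate decarboxylase (0.944), and lowest for ferric reduction oxidase 2 (0.886). Replicate 4 of 24 h was highest for the benzaldehyde dehydrogenase (0.870) and for the main glutamine synthetase copy (0.896), and replicate 2 of 24 h was highest for SKOR (0.888). At 12 h, replicate 3 was lowest for MYB58 (0.856) and replicate 4 highest for cellulose synthase subunit 2 (0.893).

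A difference between the cultivars in the change from 12 h to 24 h passed the interaction test in 3 described genes, in log2 units as CK minus EWT. It was -2.11 for the benzaldehyde dehydrogenase, 1.56 for bHLH153 and 2.17 for Peroxidase 3.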

How the results depend on the processing

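The count of CK calls depended on which libraries set the spread. Against 5478 genes, 425 were called with only the 8 compared libraries, 972 when a filter within those 8 was added (chosen after seeing the data), 3038 with the 20 CK libraries, 2447 with precision weights, 3461 with a pseudocount of 1, 3344 with at least 5 FPKM in 4 libraries, 2400 with a mean of at least 10 fragments (chosen after seeing the data), 2355 with a fold change of at least 4 and 12650 with unadjusted p. Leaving out 1 library gave 4227 to 5984. For EWT, against 6757, these were 2812 with only the compared libraries, 4299 with the filter added, 2170 at a fold of 4 and 13199 with unadjusted p, and 5221 to 7087 with 1 library out. For the difference between cultivars, against 575, they were 98 with only the compared libraries, 32 with the filter added, 138 with precision weights, 380 with at least 5 FPKM, 1257 with a pseudocount of 1 and 9457 with unadjusted p, and 390 to 935 with 1 library out. The cause was not tested.

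The labels give both times the same replicate numbers, but deviations of same-numbered CK libraries correlated between -0.0254 and 0.0366, so the numbers were not taken as pairs. With a replicate block over all 40 libraries 5339 CK genes were called, 5193 of them among the 5478. With the block in a model of only the compared libraries, limma called 0 genes in CK, 0 in EWT and 0 for the difference, although 11196 CK genes had an unadjusted p of at most 0.05.

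The share of CK calls that were higher was 46.99%, and 37.4% to 53.1% over the alternatives that called any gene, with the lowest share under the filter at 5 FPKM and the highest with precision weights.

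Over the 74 described genes 1334 of the alternative values kept direction and side of the limits, 134 lost the call, 2 gained it and 9 changed sign. The last were all genes that were not called. PHOS34 changed to 0.0093 with library sizes from all fragments, and lay between -0.1308 and 0.1408 with 1 library out. The late embryogenesis abundant protein At5g17165 lay between -0.1510 and 0.1417, and sucrose synthase isoform 1 between -0.0770 and 0.0472, with 1 library out. With 3517588 to 5104076 fragments on genes per library, small changes of weakly expressed genes were not detectable at this depth.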
